A study of Homo sapiens with 24 samples.

Results

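The histone cluster genes are the copies of the core and linker histone genes that lie in arrays, named HIST1H to HIST4H after their cluster. Their members here were the rows of the gene count table whose name starts with HIST1H, HIST2H, HIST3H or HIST4H and does not end as a pseudogene name (P or PS, with or without digits). The rule used names only, and it kept 75 of the 90 names with those prefixes, out of 58735 genes in the table. Of the 75 genes, 70 are annotated as protein-coding and 5 have a pseudogene biotype under an ordinary name. By class there were 6 H1, 17 H2A, 23 H2B, 14 H3 and 15 H4 genes, of which 55 lay in the HIST1 cluster, 15 in HIST2, 4 in HIST3 and 1 in HIST4.

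The libraries were made from poly(A) RNA of OE33 and SK-GT-4 cells, both established human esophageal adenocarcinoma lines. Each line was present as Cas9 control cells, labelled cGAS WT, and as cGAS KO cells, in which CGAS, the gene for the cytosolic DNA sensor cGAS, was knocked out with CRISPR-Cas9. Both genotypes received DMSO, the solvent, or MPS1i, the MPS1 kinase inhibitor reversine at 0.5 μM, for 48 hours. This gave 8 groups of 3 libraries, 1 from each of 3 batches, and 24 libraries in all. Batch here means the replicate number in the label, which does not itself say batch. The study describes the cells as clones, and since the labels do not say which clone each library came from, clone and genotype cannot be told apart. The study asked how mis-segregation of chromosomes, which MPS1 inhibition causes, changes gene expression with and without cGAS.

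Most histone mRNA is made in S phase to package newly copied DNA. These replication-dependent transcripts end in a short stem-loop that is bound by the stem-loop binding protein, SLBP, and they are the one class of metazoan mRNA that normally carries no poly(A) tail. Selection on poly(A) therefore removes most of them, and what is left comes from transcripts that run past the stem-loop to a poly(A) site, from tailing of the stem-loop form or from incomplete depletion. Some of the genes, such as HIST1H1C, HIST1H2BD and HIST2H2BE, are known to give polyadenylated mRNA as well, above all in cells that have left the cycle or are differentiating. Counts of these genes in poly(A) libraries therefore do not measure histone mRNA as a whole.

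The stem-loop was searched for as 16 letters (GGC, any base, CTTTT, any base, AG, any base, GCC), on the coding strand only, within 100 bases after the GENCODE 44 stop codon on GRCh38. It was found in 62 of the 66 members that have such a stop codon (93.9%). Among all 19924 protein-coding genes searched, members included, 68 had it (0.341%), so most of the 68 were these members. The 4 members without these letters were HIST1H3E, HIST1H2BI, HIST1H4L and HIST1H2AK. Only 6 different sequences of the stem-loop occurred, 1 of them in 36 members. Those of the genes that the results turn on are shown 5′ to 3′, with the 16 bases of the stem-loop in capitals and 5 bases on each side.
HIST3H2A: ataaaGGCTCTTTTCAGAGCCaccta
HIST1H2BK: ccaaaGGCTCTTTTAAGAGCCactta
HIST1H1C: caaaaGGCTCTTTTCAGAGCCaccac
HIST2H2BE: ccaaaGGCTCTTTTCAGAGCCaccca
HIST2H2AC: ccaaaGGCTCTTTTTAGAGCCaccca
HIST1H2AG: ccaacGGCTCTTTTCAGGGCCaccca
HIST1H2BJ: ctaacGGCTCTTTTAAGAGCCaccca
HIST1H4C: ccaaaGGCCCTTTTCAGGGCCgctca
HIST2H2AC and HIST1H2AG each carried a stem-loop found in no other member. The HIST2H2AC sequence lies at chr1:149887386-149887411 on the plus strand and that of HIST1H2AG at chr6:27133510-27133535 on the plus strand. The sequences of HIST3H2A (chr1:228457364-228457389) and HIST2H2BE (chr1:149886183-149886208) are on the minus strand. All lie after the stop codon, at a distance that over the 62 genes was 22 to 62 bases (median 35). The letters AATAAA, the usual poly(A) signal, occurred within 1000 bases after the stop codon on the coding strand in 29 of the 66 members (43.9%) and in 62.0% of all protein-coding genes searched.

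Of the 75 genes, 67 had a count in at least 1 library and 8 had 0 counts in all 24, and 41 were counted in every library. In OE33, 64 had a count and 42 were counted in all 12 libraries, and in SK-GT-4, 66 and 48. The 8 genes without a count were HIST3H3, HIST3H2BA, HIST1H2AA, HIST1H2BA, HIST1H3D, HIST1H2AD, HIST1H4G and HIST1H2AK. HIST1H2AA, HIST1H2BA and HIST3H3 are known as testis histones. HIST1H3D and HIST1H2AD overlap another annotated gene, AL031777.3, on the same strand, and HIST1H2AK overlaps HIST1H2BN on the other strand. Where genes overlap, the reads of one cannot be told from those of the other, so a 0 there is uncertain.

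The counts were concentrated in a few genes. All members together had 91114 counts over the 24 libraries. HIST3H2A, an H2A gene outside the main cluster, took 22.5% of them with 20506 counts, HIST1H2BK 13987 counts and HIST1H2AC 10860 counts. These 3 genes held 49.8% of the counts, the first 5 held 63.2% and the first 10 held 80.3%. Even so, 4734 genes of the table had a higher mean count than HIST3H2A. At the other end, HIST1H4C, a main S phase H4 gene, had 0 to 5 counts in an OE33 library and 1 to 13 in an SK-GT-4 library.

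**Figure D1:**
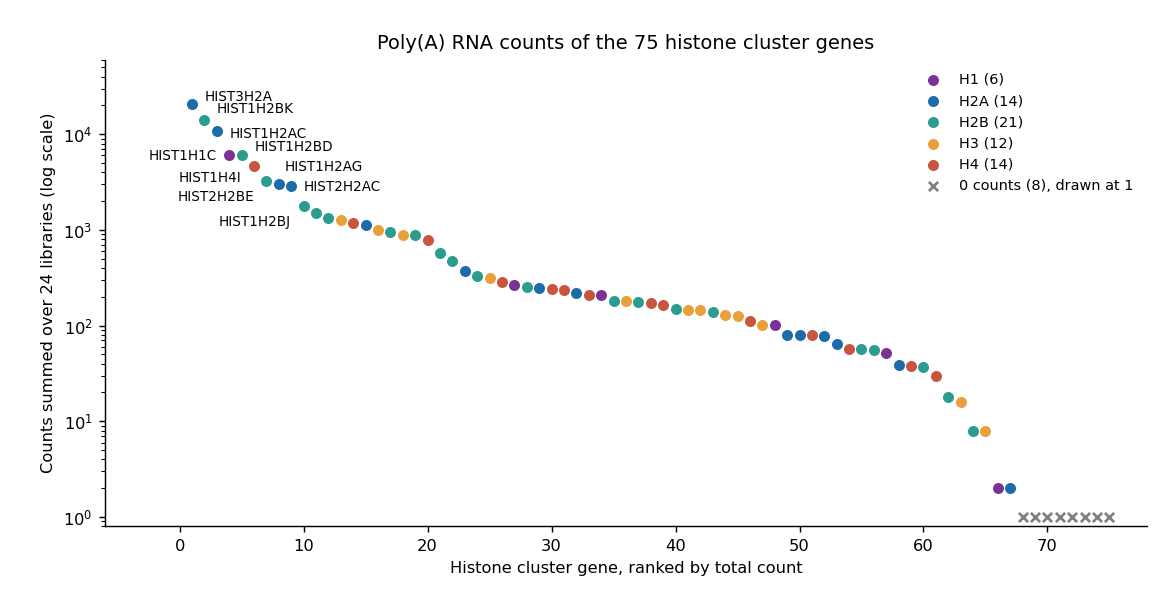
Counts of each of the 75 histone cluster genes summed over 24 libraries (y axis, log scale) against rank (x axis), coloured by histone class, with the 10 highest named. Counts run from 20506 for HIST3H2A down to 8 genes at 0, which are drawn as crosses at 1.

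Per kilobase of gene model the order was another. HIST1H2BK was first, with a mean level of 72.5 CPM (counts scaled to library size) per kb (OE33) and 75.9 (SK-GT-4), and HIST3H2A second at 37.8 and 55.8. HIST1H1C, a linker histone, was at 16.1 and 23.4 CPM per kb, and HIST2H2AC was at 2.57 in OE33 but at 28.0 in SK-GT-4, where it came before HIST1H1C. The length used is that of the deposited table, and for HIST1H2BK its 381 bases cover the coding sequence only. H2A genes held 43.5% and H2B genes 35.3% of all member counts, H4 9.05%, H1 7.43% and H3 4.74%.

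The gene models of the table did not all reach the stem-loop. In 30 of the 62 genes with stem-loop letters these lay between the start and end of the model (median of 684.5 counts per gene over the 24 libraries). In 32 they lay outside it (median 101.5). The span from start to end can hold introns, so letters within it need not lie in counted exons. The annotation of GENCODE 44 ran more than 100 bases past the stem-loop in 16 genes (median 834 counts), among them HIST3H2A, HIST1H2AC, HIST1H2BD and HIST2H2BE, and did not in 46 (median 134). HIST1H2BK was the highest of these 46. Split by model length, which was chosen with the counts in view, the 35 genes of more than 600 bases held 76.3% of the counts and the 40 shorter ones 23.7%. A longer model can collect more reads, so these medians are not levels per transcript.

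Some members cannot be told from another gene. The pairs HIST2H2AA3 and HIST2H2AA4, HIST2H4A and HIST2H4B, and the genes HIST2H3A, HIST2H3C and HIST2H3D are near-identical copies, and 19 members overlap another annotated gene. All of these are uncertain. Of the genes named below this touches HIST2H4A, HIST2H2BA, HIST1H2BD, which overlaps AL353759.1 and LARP1P1, and HIST2H2BC, which is annotated as a transcribed pseudogene and overlaps HIST2H2BD on the other strand. It also touches HIST1H3J, which overlaps HIST1H2AM on the same strand.

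Library totals were 15561268 to 25284177 gene counts. CGAS was 28.6 to 40.7 CPM in OE33 Cas9 libraries and 2.23 to 2.72 in 5 of the 6 OE33 cGAS KO libraries. The DMSO library of batch 2 labelled as OE33 cGAS KO was at 15.3 CPM, between the genotypes, which goes against its label. In SK-GT-4, CGAS was 15.3 to 26.1 CPM in Cas9 and 2.30 to 6.19 in cGAS KO. The 5 epithelial markers summed to 15971.5 to 21726.6 CPM (OE33) and 3753 to 19682 CPM (SK-GT-4). The 5 fibroblast markers summed to 0.390 to 6.81 CPM and 4.46 to 83.2 CPM, the 5 leukocyte markers to 1.36 to 7.12 and 3.61 to 34.5, and the 3 endothelial markers to 0 to 0.356 and 5.59 to 19.2. These markers thus differed between the lines as well, and their part in any difference of the histone genes was not tested. Of the RNAs without a poly(A) tail that were looked up, RN7SK, RN7SL1, RMRP and RPPH1 are listed at 0 in every library, and RN7SL2 was 7.07 to 167 CPM. RN7SL2 was highest in batch 1 of OE33 Cas9 MPS1i (127) and batch 2 of SK-GT-4 cGAS KO MPS1i (167). The part of incomplete depletion of such RNAs in the histone counts was not tested.

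Together the members made up 97.6 to 256 CPM (on unscaled library totals, median 189 over the 24 libraries). In OE33 the 3 Cas9 DMSO libraries had 201, 135 and 121 CPM in batches 1 to 3 and the Cas9 MPS1i libraries 188, 191 and 184. OE33 cGAS KO libraries had 203, 97.6 and 148 with DMSO and 191, 163 and 191 with MPS1i. The library at 97.6, the lowest of the 24, is the one whose CGAS goes against its label. The DMSO libraries thus spread widely in OE33 while those with MPS1i lay close together, and the groups overlapped. In SK-GT-4 the values were 173, 142 and 148 for Cas9 DMSO, 225, 256 and 179 for Cas9 MPS1i, 190, 175 and 218 for cGAS KO DMSO, and 253, 212 and 235 for cGAS KO MPS1i. Within genotype and batch the share was higher with MPS1i in 6 of 6 SK-GT-4 pairs (ratio of 1.08 to 1.81). The share was higher in 4 of 6 OE33 pairs (0.939 to 1.67, the highest being cGAS KO batch 2), the 2 lower ones both being batch 1. On TMM-scaled library sizes, the scale of the tests, it was higher in 5 of 6 SK-GT-4 pairs (0.985 to 2.14) and again in 4 of 6 OE33 pairs (0.914 to 1.66). Beside this, the summed level of the 20 S phase genes was lower with MPS1i in 6 of 6 OE33 pairs on both scales, and in 5 of 6 SK-GT-4 pairs on unscaled totals and 6 of 6 on scaled ones. The part of cell cycle position in the histone values was not tested. These shares add up genes chosen by name and got no test, and in bulk RNA fewer cells with a transcript cannot be told apart from less of it per cell.

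**Figure D2:**
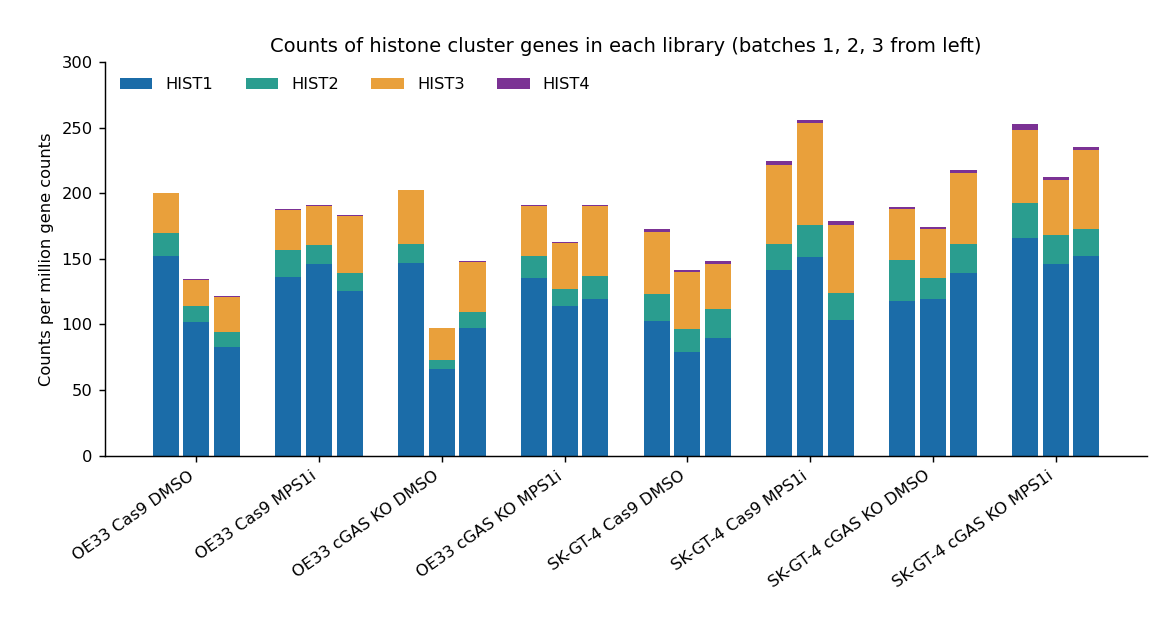
Summed CPM of the histone cluster genes, on unscaled totals (y axis) in each of 24 libraries, stacked by cluster, with the 3 batches of each group side by side. The lowest bar is batch 2 of OE33 cGAS KO DMSO at 97.6 and the highest batch 2 of SK-GT-4 Cas9 MPS1i at 256.

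The comparison of the cell lines asked which members differed between OE33 and SK-GT-4 without the inhibitor. Levels in this comparison are CPM scaled over all 24 libraries, and differ slightly from those below, which are scaled within a line. HIST2H2AC, an H2A gene, had the highest fold among the members called in both genotypes. Its level was 0.724, 1.79 and 0.858 CPM in the 3 OE33 Cas9 DMSO libraries and 11.9, 7.84 and 12.2 CPM in those of SK-GT-4. In cGAS KO DMSO it was 1.09, 0.713 and 0.936 against 30.8, 4.54 and 7.52 CPM. Over all 12 libraries of each line it ranged from 0.604 to 1.79 in OE33 and from 4.47 to 30.8 in SK-GT-4, with no overlap. The fold was 9.53 in Cas9 (log2 −3.25, SE 0.56, adjusted p = 6.55e-05) and 14.4 in cGAS KO (log2 −3.85, SE 0.58, adjusted p = 1.34e-05), by edgeR's quasi-likelihood test on all genes with Benjamini-Hochberg adjustment. Without the batch 1 library at 30.8 CPM the log2 difference in cGAS KO was −2.73 (adjusted p = 4.84e-05).

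HIST2H2AC and HIST2H2BE, an H2B gene, lie head to head with 322 bases between them. HIST2H2BE was 8.02, 5.03 and 5.75 CPM in OE33 Cas9 DMSO and 3.47, 3.24 and 3.16 CPM in SK-GT-4. This was the other way round without passing the test (log2 0.92, adjusted p = 0.0424). In cGAS KO DMSO the lines overlapped at 8.34, 2.90 and 7.82 against 3.04, 6.21 and 7.74. The 2.90 came from the OE33 library whose CGAS goes against its label, and the overlap rests on that library. The OE33 values of 8.34 and 7.82 lay above all those of SK-GT-4. Of 13 such head-to-head pairs, 10 had both genes tested, and the log2 differences between the lines had the same sign in 7 of them in Cas9 and in 6 in cGAS KO.

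HIST1H2BH, an H2B gene, was 1.24, 1.13 and 1.01 CPM in OE33 Cas9 DMSO and 4.75, 6.0 and 8.88 in SK-GT-4. The fold was 5.67 (adjusted p = 1.01e-05), and 3.95 in cGAS KO (adjusted p = 0.000211). HIST4H4, the single gene of the HIST4 locus on chromosome 12, was 0.310, 0.564 and 0.858 CPM against 2.25, 1.68 and 2.23, and was 3.50-fold higher in SK-GT-4 Cas9 (adjusted p = 0.00106) and 4.42-fold in cGAS KO (adjusted p = 0.000214). These 3 genes were the only members of 65 in which all 12 libraries of one line lay above all 12 of the other, where 9.37% of all genes did so with SK-GT-4 higher. No member had OE33 higher in all 12, where 8.01% of all genes did, and 62 members overlapped.

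HIST2H2BC went the other way. It was 4.45, 3.79 and 3.53 CPM in OE33 Cas9 DMSO and 0.970, 1.11 and 1.37 in SK-GT-4, a 3.35-fold difference (adjusted p = 7.86e-05). In cGAS KO it was 2.39, 2.33 and 2.48 against 2.11, 1.29 and 1.61 CPM, again without overlap, but did not pass the test (log2 0.53, adjusted p = 0.193). HIST1H2AG, an H2A gene, was 9.36, 6.0 and 6.51 CPM in OE33 Cas9 and 3.17, 3.00 and 3.94 in SK-GT-4 Cas9 (2.14-fold, adjusted p = 0.00322), and in cGAS KO 7.17, 5.14 and 3.47 against 6.97, 7.21 and 8.33. For both genes the lines did not overlap in Cas9. HIST1H3E and HIST1H2AC also passed with OE33 higher in Cas9, at 2.71-fold and 2.13-fold.

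At adjusted p ≤ 0.01, 7 of 65 members tested were called between the Cas9 DMSO groups, 4 higher in OE33 and 3 higher in SK-GT-4, where 24.4% of all 25181 genes were called. Between the cGAS KO DMSO groups, 7 of 65 were called, all higher in SK-GT-4, against 24.0% of all genes. These were HIST2H2AC, HIST1H2BH, HIST4H4, HIST1H4J, HIST2H4A, HIST1H3G and HIST1H1B. HIST1H4J had 1 to 7 counts per OE33 library and 9 to 52 per SK-GT-4 library in these groups, and HIST2H4A 1 to 4 and 11 to 16. The 7 of 65 (10.8%) lie below the share of all genes in both comparisons, and most members had few counts. The median log2 difference over the 65 members was −0.35 (Cas9) and −0.74 (cGAS KO), and over all genes −0.14 and −0.16. HIST2H2AC, HIST1H2BH and HIST4H4 were called in both genotypes. Without the batch 1 library of SK-GT-4 cGAS KO DMSO, in which HIST2H2AC was 30.8 CPM, these 3 remained of the 7 called in cGAS KO. Without the OE33 cGAS KO DMSO library whose CGAS goes against its label the number was 4, the same 3 and HIST1H2BL. Leaving out all libraries of batch 3 left HIST2H2AC alone in cGAS KO, and HIST1H2BH and HIST2H2BC in Cas9. Leaving out batch 1 left HIST2H2AC, HIST1H2BH and HIST4H4 in cGAS KO, and HIST1H2BH, HIST2H2AC and HIST2H2BC in Cas9. HIST2H2AC in Cas9, HIST1H2BH in cGAS KO and HIST4H4 in both were thus lost without batch 3, and HIST4H4 in Cas9 also without batch 1. Of the 7 genes known to be polyadenylated as well (HIST1H1C, HIST1H2AC, HIST1H2BC, HIST1H2BD, HIST1H2BK, HIST2H2BE and HIST1H4H), 7 had a log2 difference above 0, that is higher in OE33, between the Cas9 groups (median 0.78, 4 at an unadjusted p under 0.05 and 1 called), and 5 between the cGAS KO groups (median 0.12, 1 at an unadjusted p under 0.05). The share of all genes at an unadjusted p under 0.05 was 41.5% in Cas9 and 42.3% in cGAS KO. The share of all genes above 0 was 44.9% and 43.9%.

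**Figure D3:**
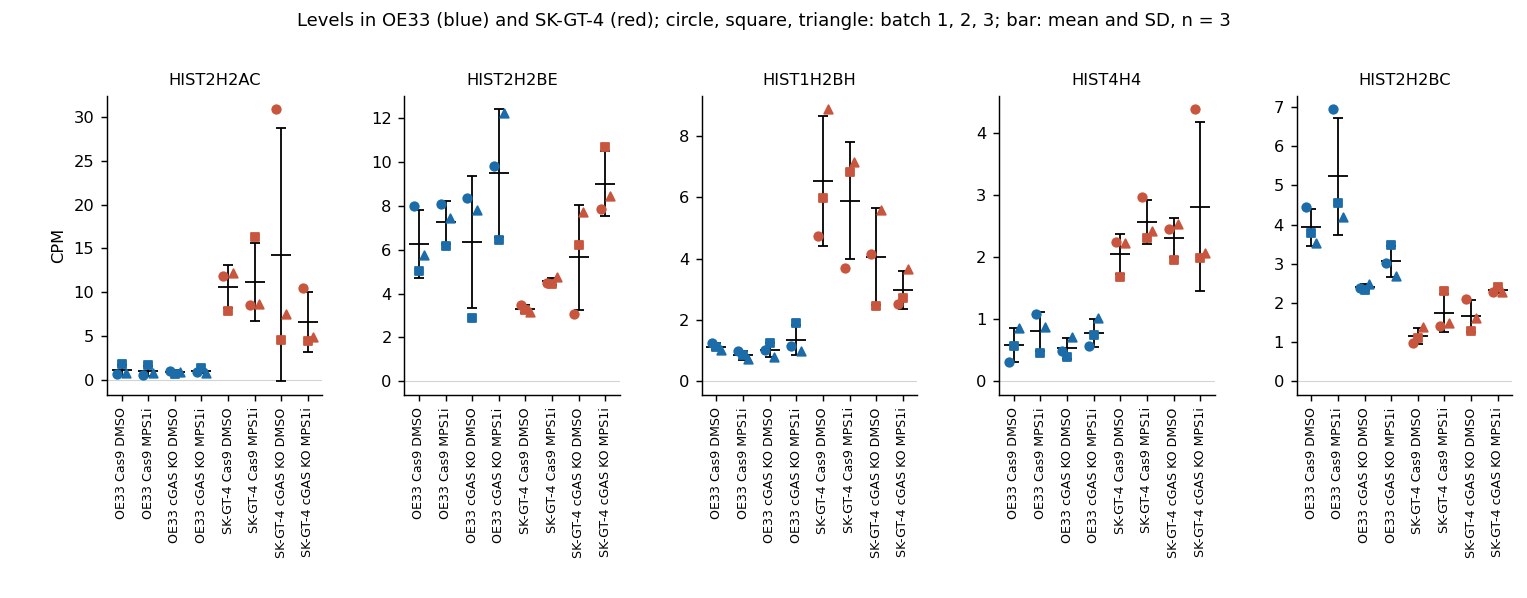
CPM (y axis, own scale per gene) of 5 genes in each library of the 8 groups, OE33 in blue and SK-GT-4 in red, with markers for the 3 batches and bars for mean and SD (n = 3). HIST2H2AC, HIST1H2BH and HIST4H4 lie higher in every SK-GT-4 library than in any OE33 library, while HIST2H2BE, the head-to-head neighbour of HIST2H2AC, and HIST2H2BC do not.

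The comparison of cGAS KO with Cas9 asked whether members differed between the genotypes of a line. HIST1H2AG was the single call. In SK-GT-4 with MPS1i it was 4.08, 3.69 and 2.91 CPM in Cas9 and 10.8, 8.41 and 10.01 in cGAS KO, a 2.72-fold difference (log2 1.44, SE 0.25, adjusted p = 0.00981 by edgeR's quasi-likelihood test). The call was lost without the replicate block (adjusted p = 0.0146) and without batch 1, 2 or 3 (adjusted p = 0.0387, 0.0384 and 0.423). With DMSO it was 3.23, 3.12 and 4.0 against 7.08, 7.33 and 8.50 CPM, 2.21-fold (log2 1.15, SE 0.25), which missed the threshold at adjusted p = 0.0248. Every cGAS KO library of SK-GT-4 was above every Cas9 library. In OE33 with DMSO it was 9.20, 5.89 and 6.64 CPM in Cas9 and 6.91, 5.03 and 3.40 in cGAS KO, where the groups overlapped and the test was not passed (log2 −0.50, adjusted p = 0.321).

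HIST1H2BJ, an H2B gene, lies head to head with HIST1H2AG, 291 bases away. With DMSO it was 2.29, 1.37 and 1.43 CPM in SK-GT-4 Cas9 and 11.7, 2.48 and 4.77 in cGAS KO, without overlap (log2 1.72, SE 0.41, adjusted p = 0.0337). With MPS1i it was 3.90, 3.92 and 2.37 against 6.51, 2.36 and 4.23 CPM, and the groups overlapped. HIST1H4I, an H4 gene a few kilobases further on, was 7.66, 5.56 and 4.98 CPM in Cas9 and 16.9, 8.98 and 14.5 in cGAS KO with DMSO, without overlap (log2 1.16, SE 0.32, adjusted p = 0.0671). HIST1H1C was 8.24, 5.22 and 4.53 CPM against 22.1, 10.3 and 14.0 with DMSO (log2 1.39, SE 0.42, adjusted p = 0.0962), and with MPS1i the Cas9 libraries spread from 9.92 to 39.8 CPM around the cGAS KO ones, all of which were between 15.4 and 15.7. HIST1H2BK was 23.8, 15.3 and 16.2 CPM in SK-GT-4 Cas9 and 23.8, 32.3 and 45.6 in cGAS KO with DMSO, which overlapped in batch 1 (log2 0.90, SE 0.30, adjusted p = 0.131). With MPS1i it was 29.8, 15.7 and 19.2 against 41.7, 35.7 and 47.7 CPM, without overlap (log2 0.97, SE 0.30, adjusted p = 0.101). HIST1H2BJ, HIST1H4I and HIST1H1C, like HIST1H2AG, were at higher CPM in cGAS KO with DMSO in all 3 batches, but none of the 4 was called.

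In SK-GT-4 with DMSO, 0 of 64 members were called (10 at an unadjusted p under 0.05, and 3 by DESeq2, which were HIST1H2AG, HIST1H2BJ and HIST1H3G), against 1.76% of all 22782 genes. With MPS1i 1 of 64 was called, against 1.41% of all genes, and 7 of 64 had an unadjusted p under 0.05, against 18.4%. At an unadjusted p under 0.05 the share of all genes with DMSO was 17.5% in each line. In OE33 no member was called with DMSO (9 of 61 at an unadjusted p under 0.05, 0 by DESeq2), against 1.47% of all 20426 genes, or with MPS1i (2 of 61 at an unadjusted p under 0.05, where 21.3% of all genes were, and 0 by DESeq2), against 2.84%. With DMSO, 24 of 64 members were higher in cGAS KO in all 3 batches of SK-GT-4, where 16.1% of all genes were, and 8 were lower, where 18.8% were. With MPS1i the numbers were 11 and 8, against 19.0% and 20.1%. In OE33 with DMSO, 6 of 61 were higher (all genes 16.2%) and 12 lower (16.4%), and with MPS1i 5 were higher (20.1%) and 16 lower (20.2%). The OE33 DMSO counts include the cGAS KO library whose CGAS goes against its label. HIST1H2AG, HIST1H2BO, HIST1H3E and HIST2H2BC were lower in all 6 OE33 pairs, where 8.86% of all genes were, and HIST1H1B, HIST1H2AG, HIST1H2BD and HIST2H2BC were higher in all 6 SK-GT-4 pairs, where 8.23% were. HIST1H2BH, HIST1H3A and HIST1H3J were lower in all 6 SK-GT-4 pairs, where 8.57% of all genes were. Of the 64 members tested in SK-GT-4, 43 had a log2 difference above 0 with DMSO (median 0.39, all genes 0.03) and 29 with MPS1i (median −0.18, all genes −0.03). Of all genes, 51.6% (DMSO) and 48.5% (MPS1i) were above 0. Of the 7 genes known to be polyadenylated as well, 7 were above 0 in SK-GT-4 with DMSO (median 0.72, 4 at an unadjusted p under 0.05) and 5 with MPS1i (median 0.31, 2 at an unadjusted p under 0.05). In OE33, 3 of the 7 were above 0 with DMSO and 2 with MPS1i (medians −0.06 and −0.10), and in no genotype comparison was any of them called.

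The epithelial markers moved with genotype in SK-GT-4. All 5 (EPCAM, CDH1, KRT8, KRT18 and KRT19) had a log2 difference above 0 with DMSO and an unadjusted p under 0.05 (median 1.71), and CDH1 and EPCAM were called. They summed to 3753 to 5273 CPM in Cas9 and 9790 to 19682 in cGAS KO, without overlap. With MPS1i the 5 were again above 0 (median 0.85, 3 at an unadjusted p under 0.05, CDH1 called), at 3958 to 8617 CPM against 9017 to 10752. In OE33 none of the 5 had an unadjusted p under 0.05. The part of this difference in the values of HIST1H2AG and the other histone genes was not tested.

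HIST2H2BC had the smallest p in OE33. It was 4.37, 3.72 and 3.60 CPM in Cas9 and 2.30, 2.28 and 2.43 in cGAS KO with DMSO, without overlap (log2 −0.74, SE 0.23, adjusted p = 0.0763), and 6.80, 4.38 and 4.14 against 2.91, 3.34 and 2.60 with MPS1i (log2 −0.78, SE 0.22, adjusted p = 0.0387). Neither passed the threshold. HIST3H2A was 29.0, 20.1 and 29.3 CPM in OE33 Cas9 DMSO and 40.0, 22.7 and 38.6 in cGAS KO DMSO, and was the only member higher in cGAS KO in all 6 OE33 pairs, where 9.65% of all genes were. The groups overlapped.

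A single library stood apart in this comparison. In batch 1 of SK-GT-4 cGAS KO DMSO, SLBP was 284 CPM against 97.9 and 123 in the other batches, H2AFZ, a replication-independent H2A, 1266 against 324 and 417, and H3F3B, a replication-independent H3, 1401 against 553 and 576. The same library was the highest of SK-GT-4 in HIST2H2AC, HIST1H2BJ and HIST1H4I, and the highest of the SK-GT-4 DMSO libraries in HIST1H1C. The part of what sets it apart in these values was not tested.

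**Figure D4:**
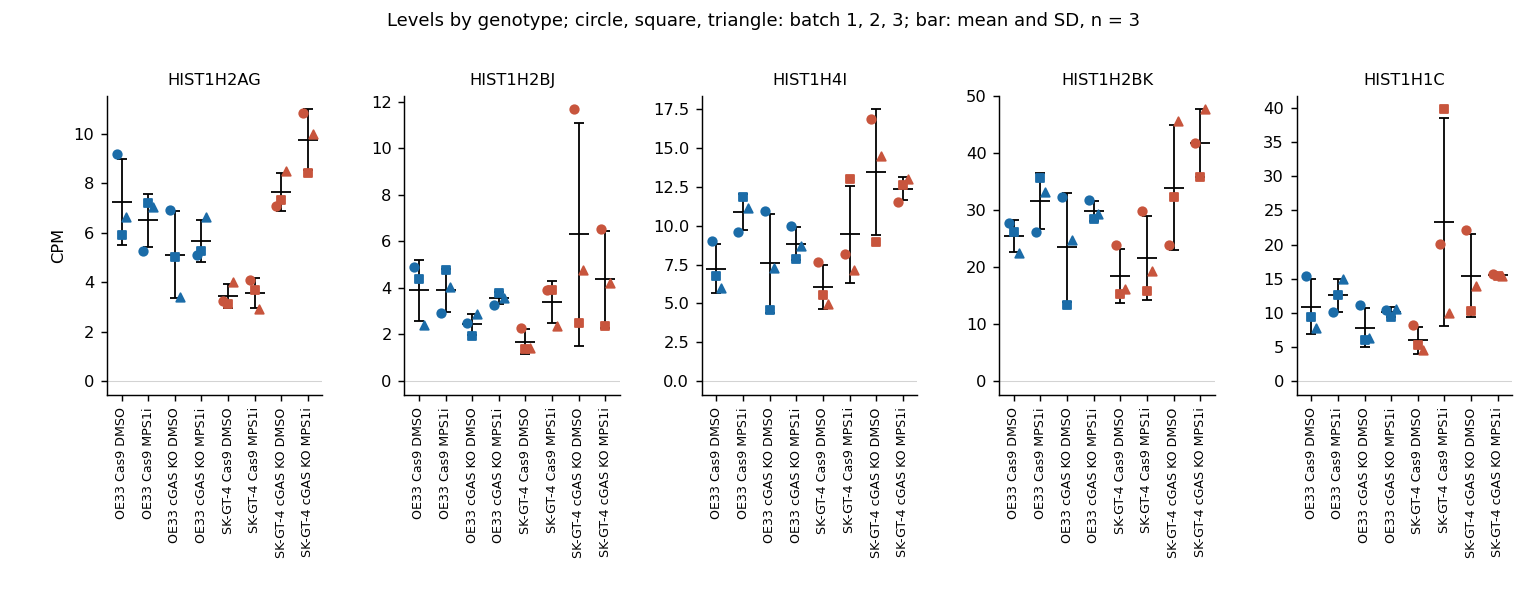
CPM (y axis, own scale per gene) of 5 genes in each library of the 8 groups, OE33 in blue and SK-GT-4 in red, with markers for the 3 batches and bars for mean and SD (n = 3). HIST1H2AG is higher in all 6 SK-GT-4 cGAS KO libraries (7.08 to 10.8) than in the 6 Cas9 ones (2.91 to 4.08), and HIST1H2BK is higher there with MPS1i (35.7 to 47.7 against 15.7 to 29.8), while HIST1H2BJ, HIST1H4I and HIST1H1C overlap with MPS1i.

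The comparison of MPS1i with DMSO asked whether members responded to the inhibitor. None passed the test in either line. In these fits few genes of the whole table or none passed, so a missing call does not show that a member was unchanged. The study, with DESeq2 after a ComBat correction and at the same threshold, reported many genes raised by MPS1i in Cas9 cells of each line. The OE33 cGAS KO, averaged and pair values of this comparison include the DMSO library whose CGAS goes against its label. In OE33 the number called was 0 of 61 in Cas9 (3 at an unadjusted p under 0.05, all higher, where 6.95% of all genes were, and 0 by DESeq2), where 0.0049% of all genes were called, and 0 of 61 in cGAS KO (2, both higher, where 6.95% of all genes were, and 0 by DESeq2), where 0.0% were. Averaged over the genotypes it was again 0 (6 higher and 1 lower at an unadjusted p under 0.05, where 12.2% of all genes were, and 0 by DESeq2), against 0.0294% of all genes. In SK-GT-4 the number was 0 of 64 in Cas9, in cGAS KO and averaged, with 0 by DESeq2 in each and 0.0% of all genes called in each. At an unadjusted p under 0.05, 8 members were higher and 4 lower in SK-GT-4 Cas9 (18.8%, all genes 2.48%), 1 and 2 in cGAS KO (4.69%, all genes 1.39%) and 6 and 5 averaged (17.2%, all genes 2.19%). In OE33 Cas9, 11 of 61 members were higher with MPS1i in 3 of 3 batches, where 16.7% of all genes were, and 5 lower, where 17.8% were. In OE33 cGAS KO the numbers were 10 (13.2%) and 11 (14.0%). In SK-GT-4 Cas9, 16 of 64 were higher (all genes 14.9%) and 6 lower (13.4%), and in SK-GT-4 cGAS KO 12 (12.04%) and 11 (11.8%).

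Among the same 7 genes listed as known to be polyadenylated as well, the averaged log2 difference was above 0 for all 7 in both lines, with medians of 0.33 (OE33) and 0.59 (SK-GT-4), beside 0.01 over all genes in each. In OE33 3 of the 7 and in SK-GT-4 5 of the 7 had an unadjusted p under 0.05, where 12.2% and 2.19% of all genes did. None of the 7 passed after adjustment. Over all members the averaged median was 0.13 (OE33, 39 of 61 above 0) and 0.10 (SK-GT-4, 35 of 64). Of all genes, 51.2% (OE33) and 51.9% (SK-GT-4) were above 0.

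HIST1H2AC was 15.7, 8.09 and 9.17 CPM in SK-GT-4 Cas9 DMSO and 24.0, 28.0 and 16.8 with MPS1i, without overlap. In SK-GT-4 cGAS KO it was 15.9, 14.3 and 17.0 CPM with DMSO and 30.3, 18.5 and 20.7 with MPS1i, also without overlap. It had the smallest p of the averaged comparison (log2 0.81, SE 0.20, unadjusted p = 0.00156, adjusted p = 1.0). In OE33 it was 31.0, 17.7 and 18.8 CPM in Cas9 DMSO and 28.9, 28.7 and 29.4 with MPS1i, where batch 1 went down and the others up.

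HIST1H1C was 8.24, 5.22 and 4.53 CPM in SK-GT-4 Cas9 DMSO and 20.1, 39.8 and 9.92 with MPS1i, without overlap (log2 1.92, SE 0.43, unadjusted p = 0.000969, adjusted p = 0.981). In cGAS KO it was 22.1, 10.3 and 14.0 with DMSO and 15.7, 15.4 and 15.4 with MPS1i, which overlapped. The difference between the genotypes had an unadjusted p of 0.00836 and did not pass (adjusted p = 0.823). The highest value came from batch 2 of SK-GT-4 Cas9 MPS1i, which was also highest in HIST3H2A (85.4 CPM, against 54.4 and 47.8 in the other batches) and in which NPAT was 4.78 CPM against 10.7 and 11.3.

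HIST2H2BE was 3.54, 3.38 and 3.21 CPM in SK-GT-4 Cas9 DMSO and 4.61, 4.44 and 4.96 with MPS1i, and in cGAS KO 3.10, 6.31 and 7.89 against 8.15, 10.7 and 8.77. It did not overlap in either genotype. In OE33 it was 7.88, 4.93 and 5.87 CPM in Cas9 DMSO and 7.94, 5.94 and 7.36 with MPS1i, which overlapped. In OE33 cGAS KO it was 8.04, 2.84 and 7.66 against 9.47, 6.19 and 11.8 (log2 0.62, SE 0.22, adjusted p = 0.621 by edgeR). The 2.84 CPM came from the DMSO library of batch 2 whose CGAS goes against its label. HIST2H2BE and HIST2H2BC were the members higher with MPS1i in 6 of 6 OE33 pairs, 2 of 61 where 4.74% of all genes were, and HIST1H3A and HIST1H3H were lower in 6 of 6, where 6.16% were.

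HIST3H2A was 29.0, 20.1 and 29.3 CPM in OE33 Cas9 DMSO and 27.4, 29.0 and 46.6 with MPS1i, and 40.0, 22.7 and 38.6 against 35.8, 32.8 and 54.9 in cGAS KO (averaged log2 0.33, SE 0.11, adjusted p = 0.227). In SK-GT-4 Cas9 it was 44.2, 39.8 and 31.6 against 54.4, 85.4 and 47.8 CPM, without overlap, and in cGAS KO 50.6, 34.5 and 59.0 against 53.4, 37.7 and 60.8, which differed little within each batch. HIST1H4I had the smallest p in OE33 Cas9, at 9.0, 6.74 and 5.97 CPM with DMSO and 9.64, 11.9 and 11.1 with MPS1i (log2 0.62, SE 0.22, adjusted p = 0.608), without overlap.

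In SK-GT-4, 9 of 64 members were higher with MPS1i in 6 of 6 pairs, where 1.83% of all genes were. They were HIST1H2AC, HIST1H2BD, HIST1H2BK, HIST1H3E, HIST1H4H, HIST2H2BA, HIST2H2BC, HIST2H2BE and HIST3H2A, of which 5 are on the list of 7. HIST1H2BL and HIST1H2BO were lower in 6 of 6, at 0.054 to 0.792 CPM, where 1.26% of all genes were. HIST2H2BA, a pseudogene, had 0 to 12 counts per SK-GT-4 library and 0 in every OE33 library. In OE33, batch 1 went against batches 2 and 3 for most of the 8 genes plotted. A difference of the MPS1i effect between the genotypes was called for 0 of 61 members in OE33 (1 at an unadjusted p under 0.05, where 1.88% of all genes were) and 0 of 64 in SK-GT-4 (3, where 2.41% were), with 0 by DESeq2 and 0.0% of all genes called. Between the lines in Cas9 it was called for 0 of 65 (3 at an unadjusted p under 0.05, where 1.58% of all genes were, 0 by DESeq2), against 0.0% of all genes. A p that misses the threshold does not show that the effects were alike.

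**Figure D5:**
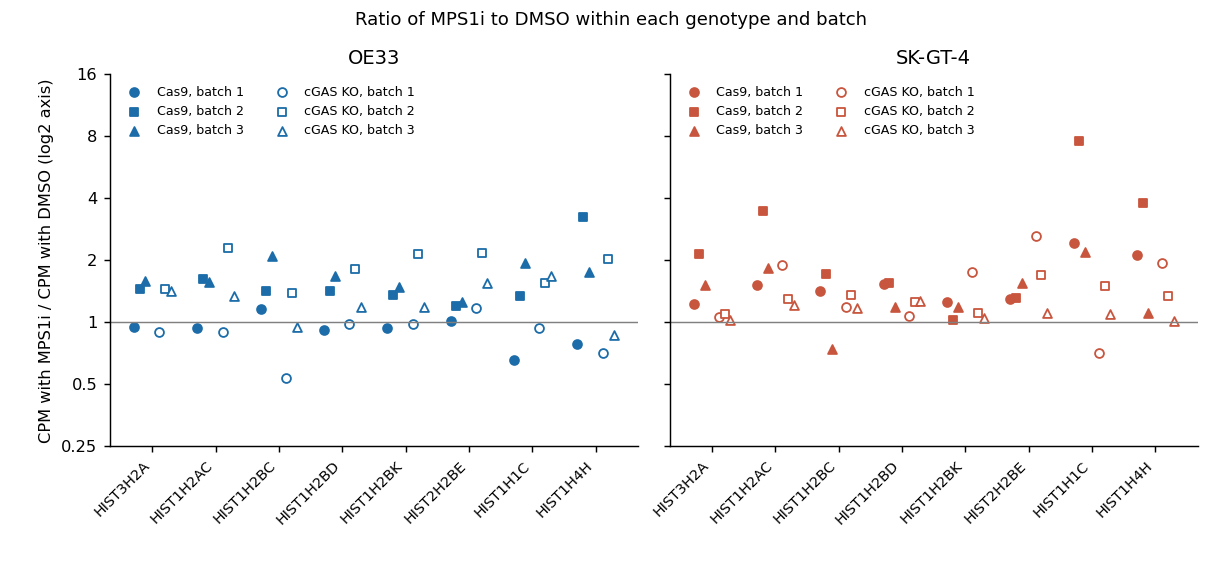
Ratio of CPM with MPS1i to CPM with DMSO within each genotype and batch (y axis, log2 axis) for HIST3H2A and the 7 genes known to be polyadenylated as well, in OE33 and SK-GT-4. HIST3H2A, HIST1H2AC, HIST1H2BD, HIST1H2BK, HIST2H2BE and HIST1H4H lie above 1 in all 6 SK-GT-4 pairs, and in OE33 batch 1 (circles) lies below 1 for most genes.

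The genes that make, process and escort histones gave no call with MPS1i. Of the 25 genes of histone mRNA processing and transcription, 0 passed in any comparison of MPS1i or genotype, and SLBP was 125, 132 and 129 CPM in OE33 Cas9 DMSO and 110, 118 and 115 with MPS1i (averaged log2 −0.14, adjusted p = 0.537). NPAT, the coactivator of histone gene transcription, was 16.4, 17.0 and 21.7 against 18.9, 14.5 and 16.9 CPM. Of 20 S phase genes, 19 had a log2 difference below 0 in OE33 averaged over the genotypes, 13 with an unadjusted p under 0.05 and none called (median −0.26). In SK-GT-4 all 20 were below 0 (median −0.32), 1 with an unadjusted p under 0.05. PCNA, the sliding clamp of replication, had an averaged log2 difference of −0.26 in OE33 (adjusted p = 0.304), and RRM2, a subunit of ribonucleotide reductase, −0.40 (adjusted p = 0.0916). The list of 7 polyadenylated histone genes and that of S phase genes thus lay on opposite sides of 0 in both lines.

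The 12 genes listed as replication-independent histones summed to 1666 to 5281 CPM, beside 97.6 to 256 for all 75 cluster genes. With MPS1i none of the 12 was called, and the averaged median log2 difference was −0.14 (OE33) and −0.17 (SK-GT-4). H2AFX, the H2A variant phosphorylated at DNA breaks, was 209, 221 and 225 CPM in OE33 Cas9 DMSO and 151, 152 and 144 with MPS1i, without overlap (averaged log2 −0.42, adjusted p = 0.0658). H1F0, a linker histone of resting and differentiated cells, was the one call of the list between genotypes, at 99.7, 98.3 and 79.4 CPM in SK-GT-4 Cas9 DMSO and 273, 214 and 159 in cGAS KO (log2 1.20, adjusted p = 0.00894). H3F3A did not pass in any of these comparisons. Of 12 histone chaperones none was called with MPS1i or between genotypes, and of 14 tested non-histone protein-coding genes in the HIST1 region none was either. Between the lines 7 of 15 of those neighbours were called in Cas9, where 24.4% of all genes were, and 5 of 15 in cGAS KO, where 24.0% were.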

How the data were processed

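Poly(A) RNA of 24 cell line samples was sequenced as 150-base read pairs. Per the labels and the study's methods, the authors aligned reads to GRCh38 with HISAT2 2.0.5 and deposited raw counts per gene from featureCounts 1.5.0. The annotation release, strand setting and treatment of multiply mapped reads are not given in the sources used here, so genes that overlap on either strand and near-identical copies cannot be separated. Libraries held 15561268 to 25284177 counts.

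Members and gene lists were chosen with earlier results of these data known. Each line was fitted on its own (12 libraries) with edgeR 4.0.16 in R 4.3.3 (TMM, group plus batch, quasi-likelihood test), on genes with a total of at least 5 counts and a count in at least 4 libraries (20426 in OE33, 22782 in SK-GT-4), the filter of the study. For OE33 against SK-GT-4, 1 model took the 24 libraries together (25181 genes). Of the members, 61, 64 and 65 passed, so 14, 11 and 10 with few counts were not tested. The biological coefficient of variation was 15.0%, 34.0% and 28.7%. A gene was called at a Benjamini-Hochberg adjusted p ≤ 0.01, the threshold of the study. CPM are on TMM-scaled library sizes of the same fit. The scripts were tested on simulated data. The labels give replicate numbers and do not say batch. The study's methods mention pairing by batch number, so the replicate number was taken as the batch and used as the replicate block. No label says that a number stands for the same batch in both lines, which the model of 24 libraries assumes. Deviations of DMSO and MPS1i libraries of one genotype and batch correlated at 0.435 to 0.813 in OE33 and 0.104 to 0.720 in SK-GT-4. Those of Cas9 and cGAS KO libraries of one treatment and batch correlated at 0.332 to 0.683 in OE33 and −0.226 to 0.406 in SK-GT-4. No 2 libraries agreed within sampling noise. The study calls them biological replicates, but nothing in the labels says that batches were separate cultures. With batch in the model, p-values measure the scatter left after level differences between batches are removed.

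The genes named were CGAS, the 10 members with the highest mean CPM per line, up to 5 called members per comparison or else that with the smallest p, the 7 genes known to be polyadenylated too, and SLBP, NPAT, H2AFX, H2AFZ, H3F3A, H3F3B, H1F0, PCNA, RRM2, RN7SK, RN7SL1, RMRP and RPPH1. Other genes were named after their values were seen. Alternatives were DESeq2 1.42.0, RLE size factors, no filter, no replicate block, a block per genotype and batch, adjusted p ≤ 0.05 and leaving out each batch or 1 of 3 libraries that stood apart. Stem-loops were read from GRCh38 with GENCODE 44.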

Additional observations from a re-analysis of the deposited data

Results flagged for a closer look

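For 4 genes the cGAS KO libraries lay on one side of the Cas9 libraries of the same batch in all 3 batches of OE33 and on the other side in all 3 batches of SK-GT-4, among 19 named members looked at under 2 treatments (38 comparisons). The difference between the lines was not tested for any of them. Some of the 19 were named for their p in these same genotype comparisons, HIST1H2AG and HIST2H2BC among them. The share of all genes lying this way was not computed, so the 4 genes are not shown to exceed it. The OE33 DMSO values include the cGAS KO library whose CGAS goes against its label. HIST1H2AG had log2 differences of −0.50 (OE33) and 1.15 (SK-GT-4) under DMSO, and of −0.20 and 1.44 under MPS1i. HIST2H2BC had −0.74 and 0.52 with DMSO and −0.78 and 0.42 with MPS1i. HIST1H1C had −0.47 and 1.39 with DMSO. HIST1H2BH had 0.59 and −0.97 with MPS1i. Of these values 1 was called, that of HIST1H2AG in SK-GT-4 with MPS1i, and the clone of each genotype cannot be told apart from the genotype.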

How the results depend on the processing

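The comparisons of MPS1i with DMSO called 0 members under every alternative run. Of the values of named genes, 319 kept their direction and side of the threshold, 21 no longer passed it, 2 passed it that had not, and 1 reversed. Of the values of whole comparisons 151 stayed and 16 moved. The reversed one was HIST1H4H with MPS1i in OE33, which went from 0.31 to −0.11 without batch 2 (range −0.11 to 0.79 over the batches left out). Called members in SK-GT-4 with MPS1i (cGAS KO against Cas9, 1, HIST1H2AG) went to 0 without the replicate block, where HIST1H2AG had an adjusted p of 0.0146, and to 0 without any one batch (range 0 to 1 over the libraries left out, adjusted p of 0.0384 to 0.423). The replicate block per genotype and batch, run for the MPS1i comparisons, changed no call of a member, and without the replicate block the comparisons of the lines called 6 and 8. With DMSO the 0 called became 3 with DESeq2, 2 at adjusted p ≤ 0.05 and 4 without SK-GT-4 Cas9 MPS1i replicate 2 (range 0 to 4 over the libraries left out), which were HIST1H1C, HIST1H2AG, HIST1H2BJ and HIST1H3G. In OE33 with MPS1i it became 1 at adjusted p ≤ 0.05. Between the lines, the 7 called in Cas9 became 12 at adjusted p ≤ 0.05 and 2 to 9 with libraries left out (3 without batch 1, 2 without batch 3), and the 7 in cGAS KO became 14, and 1 to 8 (3 without batch 1, 1 without batch 3, 4 without batch 2 of OE33 cGAS KO DMSO, 3 without batch 1 of SK-GT-4 cGAS KO DMSO). HIST2H2AC was called in each of these cGAS KO fits, and in Cas9 HIST1H2BH and HIST2H2BC were. The cause was not tested, beyond the smaller number of libraries. Counts of all genes called moved by over 1.5 times as well: for cGAS KO against Cas9, 400 in SK-GT-4 with DMSO were 1495 with DESeq2 and 0 without batch 3, 321 with MPS1i were 1450 and 0, 300 in OE33 with DMSO were 737 and 11, and 580 with MPS1i were 1185 and 18. The 6 genes called with MPS1i in OE33 were 176 with DESeq2, 406 with no filter and 558 with the block per genotype and batch. Depth limited which members were tested: 14 (OE33), 11 (SK-GT-4) and 10 (both lines) had too few counts for the filter.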
